A study of Mus musculus with 32 samples.

Results

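The 9 genes described here are markers of fibroblasts and of the PDGFRA-positive interstitial cells of gut muscle: Pdgfra, P2ry1, Pi16, Dpt, Dcn, Lum, Pdpn, Fbln1 and Ltbp2. They were taken by name from the 51912 gene identifiers of the count table, and all 9 were found. The list was chosen with earlier results of these data known. Nuclear RNA was sequenced from C57BL/6 mice kept specific-pathogen-free at the University of Bern or at the Francis Crick Institute. All mice had received AAV9-CaMKII-EGFPKASH, a virus that puts EGFP on the nuclear envelope under the CaMKII promoter, by vein 5 weeks earlier. Nuclei of the outer muscle layer with its myenteric plexus were sorted into EGFP-positive ("neuronal") and EGFP-negative ("non-neuronal") nuclei. The 8 groups, of 4 libraries each, are neuronal and non-neuronal nuclei of Bern colon, of Bern small intestine (SI), of Crick colon and of Crick SI. Because the CaMKII promoter and infection set the gate, an EGFP-negative nucleus can still be that of a neuron. Age, sex and any pooling of mice are not given in the sources used here, so p-values measure the spread between these libraries, which may be partly technical.

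PDGFRA, a receptor tyrosine kinase for platelet-derived growth factors, marks fibroblast-like cells that lie along enteric nerve fibres and muscle bundles. Those cells also carry the P2Y1 purine receptor and the SK3 potassium channel, through which purines released by inhibitory motor neurons relax the muscle. Fibroblasts of the gut wall make the collagen-binding proteoglycans decorin and lumican, the matrix proteins dermatopontin and fibulin-1, and microfibril proteins such as LTBP2, while Pi16 and Pdpn mark particular fibroblast populations in several mouse organs.

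In GRCm38, Pdgfra lies on chromosome 5 (75152292 to 75198215, plus strand) and Ltbp2 on chromosome 12 (84783212 to 84876532, minus strand). These are the members that fell in colon relative to SI, and the stretches just upstream of their RefSeq starts (GRCm38.p6) are shown for that reason, Pdgfra from chr5:75152001-75152250 (plus strand) and Ltbp2 from chr12:84876533-84876741 (minus strand), with a GC content of 54.4% and 63.2%. Capitals mark the GC-box letters GGGCGG read on either strand.
Pdgfra: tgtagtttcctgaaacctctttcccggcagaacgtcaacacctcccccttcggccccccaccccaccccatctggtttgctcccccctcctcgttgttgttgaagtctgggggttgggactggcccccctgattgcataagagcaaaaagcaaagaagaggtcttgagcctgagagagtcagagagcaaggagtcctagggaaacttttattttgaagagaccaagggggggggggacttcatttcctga
Ltbp2: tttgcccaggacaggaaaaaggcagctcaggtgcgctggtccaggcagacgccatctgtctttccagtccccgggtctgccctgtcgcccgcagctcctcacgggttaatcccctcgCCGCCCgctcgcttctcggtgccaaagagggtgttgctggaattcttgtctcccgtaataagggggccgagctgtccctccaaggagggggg
A set of 5 short strings, none of which contains another, were searched on both strands of the RefSeq promoter windows of 7 members (no window was matched for Dcn and Lum) and of 32851 windows in all. A gene was counted if any of its windows held the string, whereas the shares of all windows are per window. GGGCGG was in 4 of the 7 (P2ry1, Pdpn, Fbln1 and Ltbp2) and in 35.7% of all windows. For Fbln1 the window starting at 85205758 held it, and the one starting at 85205699 did not. TATAAA was in 1 (Dpt) against 13.6%, CCAAT in 1 (Pi16) against 37.4%, and TGANTCA and GGAATG in 0 against 7.81% and 14.7%. The Pdgfra window held none of the 5 strings.

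Library totals ran from 2394513 to 8350887 counts (median 4364112), and Crick libraries were deeper (3788206 to 8350887) than Bern libraries (2394513 to 4618395). The summed level of 10 neuron markers was 1740 to 5390 CPM in neuronal libraries, against 35.1 to 1760 CPM in the non-neuronal ones; CPM are counts scaled by the library total. Several libraries stood apart within their group. Neuron markers summed to 1760 and 1480 CPM in non-neuronal Bern colon libraries 1 and 2, where libraries 3 and 4 had 782 and 836, and to 691 CPM in non-neuronal Bern SI library 1, where the others had 35.1 to 73.4. Each of the 10 neuron markers had counts in each of the 4 non-neuronal groups. Crick SI library 2 had the highest mitochondrial share of its group in both sorts, 15.99% in neuronal and 23.58% in non-neuronal nuclei, and 5 lymphocyte markers summed to 1130 CPM in non-neuronal Crick colon library 3, where the others had 93.2 to 171. These 6 libraries were left out together as an alternative, called here the fit without the 6 libraries, and its value is given where it changes a call.

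In neuronal relative to non-neuronal nuclei, 6 of the 9 genes fell and none rose: Pdgfra, Dcn, Dpt, Fbln1, Lum and Ltbp2. Of all 21521 genes tested over the 32 libraries, 21.6% fell and 21.9% rose. In Bern alone 7 of the 9 fell, where 18.6% of genes did, and in Crick alone 6 of the 9, where 15.1% did. The median log2 fold change was -4.23 over the 9 genes and -0.01 over all genes tested. All 9 passed the filter on low counts over the 32 libraries. Lum and Ltbp2 did not pass it among the neuronal libraries alone. They thus entered this test through the non-neuronal groups where they were high, and their sort calls carry that limit. P2ry1, Pi16 and Pdpn, 3 of the 9 marker names, did not pass the test. For Pdgfra, Dpt, Dcn, Lum and Fbln1 every neuronal library was below every non-neuronal library in each of the 4 strata of facility and segment, as were 2.37% of the genes tested. Fold changes are from edgeR's quasi-likelihood fit. The value after ± of a fold change is an approximate standard error (SE). It is the absolute log2 fold change divided by the square root of the F statistic of its test. Because the fold change carries a small prior count, this SE is only rough for genes near 0 in a group. Adjusted p is by Benjamini-Hochberg over all genes tested, and the threshold is 0.05. In sorted bulk nuclei, fewer cells of a type and less RNA per cell cannot be told apart. The 9 smooth muscle markers also summed to less in neuronal libraries (460 to 1290 CPM) than in non-neuronal ones (6050 to 18100 CPM). The 5 interstitial cell of Cajal markers did not. In Bern SI they summed to 727 to 2410 CPM in neuronal and 317 to 1120 CPM in non-neuronal libraries. In Crick SI these sums were 1210 to 1950 and 183 to 985 CPM, and in colon the sorts overlapped. In neuronal Bern colon libraries 1 to 4, however, 4, 4, 2 and 3 of the 5 markers had counts, and 1 was at 0 throughout. The colon sums in neuronal nuclei there thus rest on few of the markers. The part of carry-over from other cells in the low levels of neuronal libraries was not tested.

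**Figure D1:**
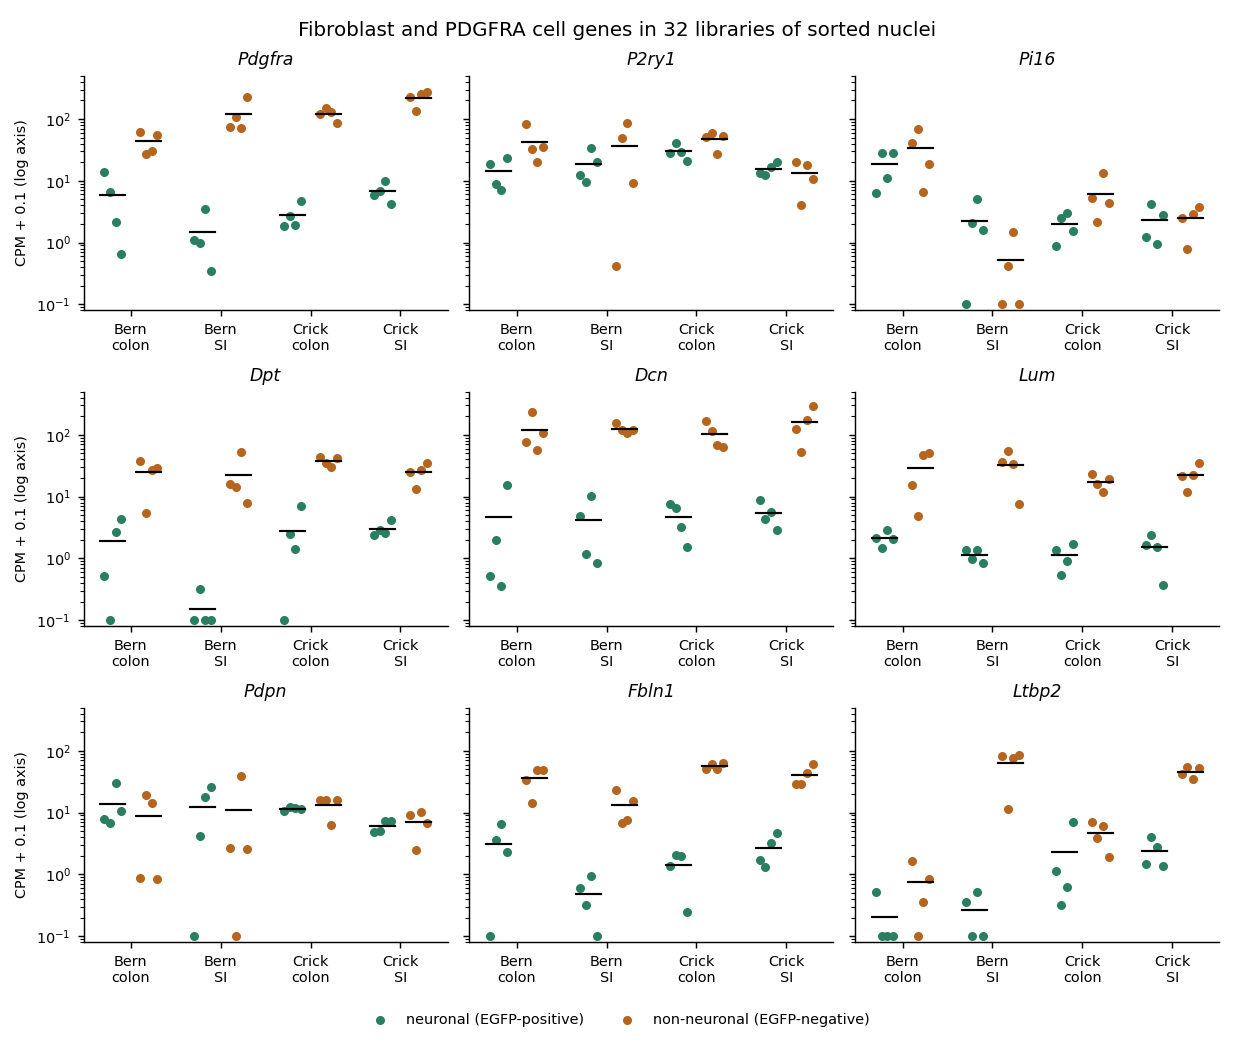
Each panel plots 1 gene in 32 libraries as CPM + 0.1 on a log axis; points are libraries, bars are group means, and neuronal groups stand left of the non-neuronal group of the same facility and segment. For Pdgfra, Dpt, Dcn, Lum and Fbln1 all neuronal points lie under the non-neuronal points beside them, and for Ltbp2 the SI non-neuronal points stand high.

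Pdgfra fell between sorts and also differed between segments and facilities. In Bern colon it had 14, 6.50, 2.05 and 0.557 CPM in neuronal nuclei, against 62.1, 26.6, 30.8 and 55.9 CPM in non-neuronal nuclei. In Bern SI it had 1.00, 0.873, 3.34 and 0.246 CPM in neuronal nuclei, against 72.8, 108, 71.5 and 231 CPM in non-neuronal nuclei. The lowest non-neuronal values in Bern were therefore those of the colon. In Crick colon Pdgfra had 1.78, 2.63, 1.85 and 4.69 CPM in neuronal nuclei, against 119, 150, 130 and 85.4 CPM in non-neuronal nuclei. In Crick SI it had 5.89, 6.84, 9.82 and 4.12 CPM in neuronal nuclei, against 229, 133, 258 and 271 CPM in non-neuronal nuclei. The sort groups did not overlap in any stratum, and the log2 fold change was -5.06 ± 0.32 (adjusted p = 1.37e-15). Within facilities it was -4.86 ± 0.46 in Bern (adjusted p = 1.48e-10) and -5.27 ± 0.45 in Crick (adjusted p = 2.16e-11). Ordered by mean level, the groups ran from Crick SI non-neuronal (223 ± 62.5 CPM, SD, n = 4) over Bern SI (121 ± 75.2) and Crick colon (121 ± 27.0) to Bern colon non-neuronal nuclei (43.9 ± 17.7); Bern colon stood apart from its neighbours on both sides, and the other non-neuronal neighbours overlapped.

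P2ry1, the ADP receptor of the purinergic inhibitory response, was present in both sorts. In Bern colon it had 18.6, 8.66, 6.92 and 23.7 CPM in neuronal nuclei, against 84.3, 32.7, 19.8 and 35.3 CPM in non-neuronal nuclei. In Bern SI it had 12.3, 9.39, 33.4 and 19.7 CPM in neuronal nuclei, against 0.324, 49.4, 84.9 and 9.26 CPM in non-neuronal nuclei. The non-neuronal Bern SI libraries held both the lowest and the highest P2ry1 value of all 32 libraries. In Crick colon P2ry1 had 28.3, 41.4, 29.3 and 20.6 CPM in neuronal nuclei, against 50.1, 59.2, 26.9 and 52.0 CPM in non-neuronal nuclei. In Crick SI it had 13.4, 12.2, 16.3 and 20 CPM in neuronal nuclei, against 20.4, 3.91, 17.7 and 10.5 CPM in non-neuronal nuclei. The sorts overlapped in all 4 strata, and no 2 neighbours in the order of the 8 group means were apart. Over all strata the log2 fold change was -0.78 ± 0.35 (adjusted p = 0.0706). It passed without the 6 libraries (-0.84, adjusted p = 0.0306), as it did without Bern SI non-neuronal library 1 (0.0112) or 4 (0.0311), without Crick SI non-neuronal library 2 (0.0439), with DESeq2 (0.0228) and with RLE scaling (0.0409). In Bern alone it passed (-1.32 ± 0.51, adjusted p = 0.0367), and in Crick it did not (-0.25 ± 0.50, adjusted p = 0.799). The Bern call was lost with limma-voom (adjusted p = 0.432) and without non-neuronal colon library 1 (0.101), neuronal colon library 2 (0.0714) or 3 (0.0724), non-neuronal SI library 3 (0.141) or neuronal SI library 1 (0.0675). P2ry1 (chromosome 3, 61002795 to 61008982, plus strand) shares exon sequence with the opposite-strand gene Gm37035, whose mean was 15.3 to 49.8 CPM in neuronal nuclei, against 2.52 to 26.1 CPM in non-neuronal groups and which rose between sorts (1.71 ± 0.43, adjusted p = 0.00113). Whether strand was used in counting is not given in the sources used here, so reads of the 2 genes cannot be told apart and P2ry1 levels are uncertain.

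Decorin (Dcn) and lumican (Lum), small leucine-rich proteoglycans that bind collagen fibrils, are near neighbours on the plus strand of chromosome 10 (97479609 to 97518143 and 97565128 to 97572703). In Bern colon Dcn had 0.413, 1.89, 0.256 and 15.6 CPM in neuronal nuclei, against 78.1, 234, 56.6 and 108 CPM in non-neuronal nuclei. In Bern SI it had 4.77, 1.09, 10.0 and 0.738 CPM in neuronal nuclei, against 157, 119, 109 and 122 CPM in non-neuronal nuclei. The sorts were far apart in both. In Crick colon Dcn had 7.39, 6.35, 3.17 and 1.46 CPM in neuronal nuclei, against 167, 114, 68.8 and 62.6 CPM in non-neuronal nuclei. In Crick SI it had 8.60, 4.27, 5.64 and 2.74 CPM in neuronal nuclei, against 123, 51.9, 174 and 299 CPM in non-neuronal nuclei. Here too no neuronal library reached the lowest non-neuronal one, and the log2 fold change was -4.84 ± 0.40 (adjusted p = 1.58e-12). Lum ran from 0.274 to 2.82 CPM in the 16 neuronal libraries (median 1.31) and from 4.76 to 55.1 CPM in the 16 non-neuronal ones (median 21.9), with a log2 fold change of -4.23 ± 0.40 (adjusted p = 2.71e-11). Among the 4 non-neuronal groups the ranges of each of the 2 genes overlapped from 1 neighbour to the next.

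Dermatopontin (Dpt), which binds decorin and helps to assemble collagen fibrils, and fibulin-1 (Fbln1), a glycoprotein of elastic fibres and basement membranes, both fell. Dpt (chromosome 1, 164796644 to 164824266, plus strand) ran from 0 to 7.03 CPM in neuronal libraries, 5 of which were at 0, and from 5.41 to 51.8 CPM in non-neuronal libraries. Its log2 fold change was -4.66 ± 0.50 (adjusted p = 8.02e-10). In Bern SI neuronal nuclei 1 count of Dpt was found in 4 libraries. Fbln1 (chromosome 15, 85205949 to 85286535, plus strand) ran from 0 to 6.41 CPM in neuronal and from 6.65 to 63.3 CPM in non-neuronal libraries, and its log2 fold change was -4.59 ± 0.40 (adjusted p = 6.14e-12). The groups of both genes were apart in every stratum.

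Ltbp2, a microfibril protein of the latent TGF-beta binding protein family, was high in 1 setting, non-neuronal nuclei of the SI. In Bern colon it had 0.413, 0, 0 and 0 CPM in neuronal nuclei, against 1.56, 0, 0.261 and 0.756 CPM in non-neuronal nuclei. In Bern SI it had 0.251, 0, 0.418 and 0 CPM in neuronal nuclei, against 82.2, 11.4, 75.4 and 84.2 CPM in non-neuronal nuclei. The sorts overlapped in Bern colon, where both were near 0, and were apart in Bern SI. In Crick colon Ltbp2 had 1.02, 0.219, 0.528 and 7.03 CPM in neuronal nuclei, against 6.96, 3.72, 6.01 and 1.80 CPM in non-neuronal nuclei. In Crick SI it had 1.36, 3.91, 2.72 and 1.24 CPM in neuronal nuclei, against 41.6, 54.6, 34.8 and 53.1 CPM in non-neuronal nuclei. The sorts again overlapped in the colon and not in the SI. Over all strata the sort difference was -4.13 ± 0.54 on the log2 scale (adjusted p = 5.05e-08). The opposite-strand gene D030025P21Rik overlaps its exons and had group means of at most 3.15 CPM in non-neuronal nuclei.

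Pi16, a peptidase inhibitor that marks adventitial fibroblasts, and podoplanin (Pdpn), a membrane glycoprotein of fibroblasts, lymphatic endothelium and mesothelium, did not pass the test between sorts. In Bern colon Pi16 had 6.20, 28.4, 10.8 and 28.1 CPM in neuronal nuclei, against 40.2, 69.5, 6.53 and 18.4 CPM in non-neuronal nuclei. In the other 3 strata it ran from 0 to 5.01 CPM in neuronal and from 0 to 13.1 CPM in non-neuronal nuclei. The sorts overlapped in all strata and the log2 fold change was -0.13 ± 0.54 (adjusted p = 0.896). Pi16 (chromosome 17, 29317680 to 29330593, plus strand) was the lowest of the 9 per kilobase of exon in non-neuronal nuclei, at 1.67 CPM per kb, where Dcn was the highest at 21.9. Pdpn (chromosome 4, 143267431 to 143299564, minus strand) had 0 to 29.7 CPM in neuronal nuclei, against 0 to 39.0 CPM in non-neuronal libraries, overlapping in all strata (0.06 ± 0.53, adjusted p = 0.974). The 4 lymphatic endothelium genes of the marker list summed to 2.34 to 28.6 CPM in neuronal nuclei, against 3.16 to 1640 CPM in non-neuronal libraries.

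In colon relative to SI, among non-neuronal nuclei, Ltbp2 and Pdgfra fell and Pi16 rose, and the other 6 genes did not pass the test. Of the 19164 genes tested over the 16 non-neuronal libraries, 9.32% passed (5.79% rose and 3.54% fell). The median log2 fold change was 0.08 over the 9 genes and 0.02 over all genes. Ltbp2 had a log2 fold change of -5.35 ± 0.58 (adjusted p = 4.28e-06), and every colon library was below every SI library in both facilities, as was so for 0.433% of genes. Its mean was 0.644 ± 0.687 CPM in Bern colon against 63.3 ± 34.8 CPM in Bern SI, 98.2-fold lower, and 4.62 ± 2.32 CPM in Crick colon against 46.0 ± 9.47 CPM in Crick SI, 9.96-fold lower (SD, n = 4 each). The Bern colon libraries held 8 counts of Ltbp2 in all, against 934 in Bern SI. The size of the Bern fold is therefore limited by counting. In Bern alone, where 10.1% of genes passed, Ltbp2 fell (-7.08 ± 0.90, adjusted p = 9.71e-05). In Crick alone, where 0.256% passed, it also fell (-3.61 ± 0.73, adjusted p = 0.0292), but that call was lost without any 1 of the 8 Crick non-neuronal libraries (adjusted p = 0.0506 to 0.153) and without the 6 libraries (0.295). D030025P21Rik fell as well (-4.42 ± 1.03, adjusted p = 0.0109), and its reads cannot be told apart from those of Ltbp2 without strand.

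Pdgfra had a log2 fold change of -1.49 ± 0.28 between colon and SI (adjusted p = 0.0019). In Bern its colon and SI ranges were apart (26.6 to 62.1 against 71.5 to 231 CPM; -1.93 ± 0.40, adjusted p = 0.007). In Crick they overlapped (85.4 to 150 against 133 to 271 CPM, -1.06 ± 0.39, adjusted p = 0.515). The share of all genes with segment ranges apart in Bern alone was not counted. The opposite-strand genes Gm42802 and Gm42803 overlap Pdgfra exons, and reads cannot be told apart without strand. In non-neuronal Bern colon Gm42802 had 0 to 28.7 CPM (mean 7.18), against 0 to 3.48 CPM in Bern SI. Gm42803 had 0 CPM in Bern colon and 0 to 7.0 CPM in Bern SI. Their part in the segment and facility differences of Pdgfra was not tested. Pi16 was higher in colon (3.52 ± 0.77, adjusted p = 0.00626). In Bern it had 6.53 to 69.5 CPM in colon against 0 to 1.39 CPM in SI (5.84 ± 1.22, adjusted p = 0.00734), with 522 counts against 6. In Crick the ranges overlapped, 2.05 to 13.1 CPM in colon and 0.680 to 3.63 CPM in SI (1.21 ± 0.98, adjusted p = 1). The 2 Bern colon libraries with the most Pi16 were those with the most neuron marker RNA. Neuron markers summed to 782 to 1760 CPM in Bern colon against 35.1 to 691 CPM in Bern SI, and to 165 to 334 against 46.9 to 170 CPM in Crick, in non-neuronal nuclei, while neuronal Bern colon libraries with 4030 to 5390 CPM of neuron markers had 6.20 to 28.4 CPM of Pi16. The part of neuron RNA in the Pi16 difference was not tested. Without the 6 libraries, which include these 2 with the highest Pi16 levels, the call was lost (2.20, adjusted p = 0.176; in Bern 4.05, 0.107).

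**Figure D2:**
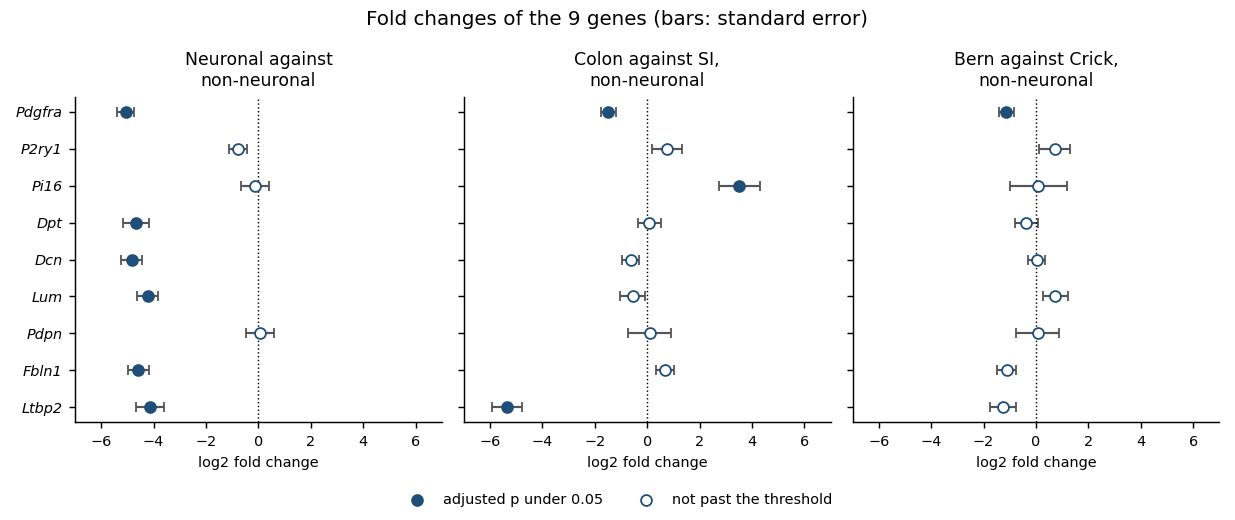
Points are log2 fold changes of the 9 genes with their approximate standard error (fold change over the square root of F). The 3 comparisons are neuronal against non-neuronal nuclei, colon against SI and Bern against Crick (the last 2 in non-neuronal nuclei). Filled points passed the test. In the segment panel Ltbp2 (-5.35) and Pi16 (3.52) lie on opposite sides.

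The remaining 6 genes gave log2 fold changes from -0.63 (Dcn) to 0.75 (P2ry1) between segments. Those of the matrix genes were -0.63 ± 0.32 for Dcn (adjusted p = 0.233), -0.56 ± 0.48 for Lum (0.528), 0.08 ± 0.43 for Dpt (0.95) and 0.68 ± 0.36 for Fbln1 (0.258). Pdpn gave 0.10 ± 0.82 (adjusted p = 0.969). The P2ry1 ranges did not overlap in Crick, at 26.9 to 59.2 CPM in colon against 3.91 to 20.4 CPM in SI (1.71 ± 0.84, adjusted p = 0.863), and overlapped in Bern (-0.21 ± 0.82, adjusted p = 0.901). The share of all genes apart in Crick alone was not counted, and P2ry1 did not pass the test there. Other cell types moved with segment in non-neuronal nuclei. Epithelium markers summed to 1670 to 12300 CPM in colon against 138 to 991 CPM in SI, lymphatic endothelium markers to 446 to 1640 against 3.16 to 144 CPM, and mesothelium markers to 52.7 to 189 against 116 to 427 CPM. None of the 7 epithelium, 4 lymphatic endothelium and 6 mesothelium markers was at 0 throughout a non-neuronal group. Mitochondrial RNA took 3.49% to 10.19% in colon against 6.28% to 23.58% in SI. Their part in the segment results was not tested.

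To set Ltbp2, Pdgfra and Pi16 against a fibroblast gene that did not pass the segment test, counts were also expressed per 100 Dcn counts of the same library, a choice made after values were seen. Ltbp2 had 0 to 2.0 per 100 in Bern colon against 9.57 to 69.0 in Bern SI, and 2.87 to 8.74 in Crick colon against 17.7 to 105 in Crick SI. Pdgfra had 11.4 to 79.5 in Bern colon against 46.4 to 189 in Bern SI, and 71.4 to 189 in Crick colon against 90.7 to 256 in Crick SI. So the Ltbp2 ranges stayed apart in both facilities on this scale, and the Pdgfra ranges overlapped in both. How many of all genes were apart on this scale was not counted, so the ranges are a description only. Pi16 had 11.5 to 51.5 in Bern colon against 0 to 1.27 in Bern SI, and 1.80 to 19.1 in Crick colon against 1.21 to 1.95 in Crick SI.

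**Figure D3:**
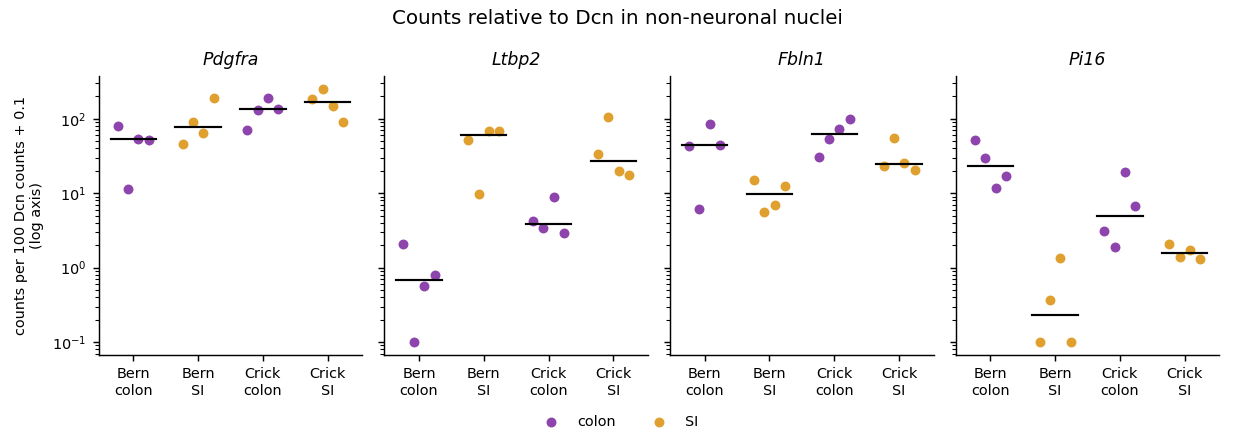
Counts per 100 Dcn counts (+ 0.1, log axis) of Pdgfra, Ltbp2, Fbln1 and Pi16 in the 16 non-neuronal libraries; points are libraries and bars medians. The Ltbp2 colon points (0 to 8.74) lie under all SI points (9.57 to 105).

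In Bern relative to Crick, among non-neuronal nuclei, Pdgfra fell and no other of the 9 genes passed. Of the 19164 genes tested 9.29% passed, 4.94% lower and 4.35% higher. Pdgfra had a log2 fold change of -1.13 ± 0.28 (adjusted p = 0.0127). Its ranges were apart in colon (26.6 to 62.1 CPM in Bern against 85.4 to 150 CPM in Crick, mean 2.76-fold lower) and overlapped in SI (71.5 to 231 against 133 to 271 CPM). The share of all genes apart between facilities in colon alone was not counted. The call was lost without the 6 libraries (-1.04, adjusted p = 0.084). Fbln1 had 34.0, 14.3, 48.0 and 47.9 CPM in Bern colon against 50.8, 61.8, 49.9 and 63.3 CPM in Crick colon. In SI it had 23.3, 6.65, 7.52 and 15.1 CPM in Bern against 28.5, 28.9, 44.2 and 60.4 CPM in Crick. Every Bern library of Fbln1 was thus below every Crick library of its segment, as was so for 1.62% of genes, with a log2 fold change of -1.11 ± 0.36 (adjusted p = 0.0556) that passed with DESeq2 (0.00689), limma-voom (0.026) and RLE scaling (0.0486). It also passed without Bern non-neuronal colon library 3 (0.0491) or 4 (0.0495) or Bern non-neuronal SI library 1 (0.0235) or 4 (0.0428). The others gave -1.26 ± 0.51 for Ltbp2 (adjusted p = 0.127), -0.37 ± 0.43 for Dpt (0.661), 0.02 ± 0.32 for Dcn (0.984), 0.07 ± 0.82 for Pdpn (0.975), 0.09 ± 1.08 for Pi16 (0.975), 0.71 ± 0.58 for P2ry1 (0.493) and 0.73 ± 0.48 for Lum (0.373). Other markers differed between facilities in some non-neuronal groups. Neuron markers summed to 782 to 1760 CPM in Bern colon against 165 to 334 CPM in Crick colon. In SI these sums overlapped, at 35.1 to 691 CPM in Bern (median 59.9) and 46.9 to 170 CPM in Crick (median 71.6). Smooth muscle markers summed to 8480 to 16900 CPM in Bern colon against 6050 to 9000 CPM in Crick colon, and to 14500 to 18100 CPM in Bern SI against 6810 to 14200 CPM in Crick SI. Their part in the facility results was not tested. Genes detected per library were 15641 to 22406 in Bern and 25675 to 34994 in Crick, and the facility cannot be told apart from anything else in which the libraries of the 2 places differed.

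Whether the segment difference itself depended on the facility was tested in non-neuronal nuclei, and 0 of 19164 genes passed (0.0%). At an unadjusted p under 0.05 there were 2015 genes, and with adjustment DESeq2 called 329 and limma-voom 0. Ltbp2 gave -3.47 ± 1.04 (adjusted p = 0.247; 0.0327 with DESeq2) and Pi16 4.63 ± 1.49 (0.259; 0.0334 with DESeq2). The larger segment differences of both in Bern than in Crick were therefore not past the threshold in edgeR.

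Within neuronal nuclei 7 of the 9 genes were tested, since Lum and Ltbp2 did not pass the filter on low counts. None passed between colon and SI (5.51% of 17419 genes did) or between Bern and Crick (7.72%). Between segments the largest was Dpt (1.96 ± 0.94, adjusted p = 0.266), and between facilities Dpt again (-2.84 ± 0.96, adjusted p = 0.0715), with 27 counts in 8 Bern libraries and 139 in 8 Crick libraries. The facility call of Dpt was gained without Bern neuronal colon library 4 (0.0468), with DESeq2 (0.0497) and when the sorts were fitted together (0.0248). Ltbp2 had 3 counts over the 8 Bern neuronal libraries (0 to 0.418 CPM) and 115 over the 8 Crick neuronal libraries (0.219 to 7.03 CPM). Of the Crick counts, 48 were in colon library 4 and 32 in SI library 2. No fold change is given for Ltbp2 here, since it could pass a filter only through its Crick counts. Whether the segment difference depended on the sort was tested over all 32 libraries, where 6.48% of genes passed and none of the 9 did. Ltbp2 gave 4.77 ± 1.67 (adjusted p = 0.0785) and Pdgfra 1.73 ± 0.57 (adjusted p = 0.0626), the sign meaning that colon minus SI was lower in non-neuronal than in neuronal nuclei. Ltbp2 passed with DESeq2 (0.000367) and limma-voom (0.00271), but in none of the 32 fits with 1 library left out (lowest adjusted p 0.0638). Pdgfra passed with DESeq2 (0.0284), with no filter (0.039) and without Bern neuronal colon library 3 (0.0435) or 4 (0.0222). It also passed without Bern neuronal SI library 3 (0.0258) or Bern non-neuronal SI library 1 (0.0406) or 3 (0.0444). Pi16 passed without Bern non-neuronal SI library 3 (-3.24, adjusted p = 0.0481).

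Across the 16 non-neuronal libraries the 9 genes varied to unequal degrees. The SD of log2 CPM was 0.69 for Dcn, 0.79 for Dpt, 0.89 for Fbln1, 0.97 for Lum and 1.07 for Pdgfra, and 1.64 for P2ry1, 1.72 for Pdpn, 1.98 for Pi16 and 2.67 for Ltbp2. The likeness of 2 profiles was measured as the root mean square difference of their centred log2 CPM. This difference also depends on the SD of each gene, so it does not measure shared variation alone. The nearest pairs among the 9 were Dpt with Lum (0.91) and Dpt with Fbln1 (0.96), followed by Pdgfra with Dcn (1.06), and the farthest was Pi16 with Ltbp2 (4.41). Pdgfra and P2ry1, both named for the same interstitial cell, differed by 2.13. Among 11917 genes, the 5 nearest to Pdgfra were Kif5b (0.56), Gfm1 (0.60), Pibf1 (0.62), Parp14 (0.63) and Arhgap29 (0.64), and those nearest to Dcn were Exoc4 (0.48), Clock, Arl5a and Psme4 (0.49 each) and Kdm1a (0.50). Those nearest to P2ry1 were Hibch (0.75), Ywhab (0.77), Siah2 (0.85), Mir17hg (0.90) and Tm9sf2 (0.96). Among those nearest to Pi16 were Gria4 (0.92), Zcchc12 (1.01), Cyb561 (1.04) and Tk2 (1.06).

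The other genes of these pathways were counted in 5 lists. In neuronal against non-neuronal nuclei, where 21.6% of all genes fell and 21.9% rose, of 6 other PDGF ligands and receptors, 4 fell and none rose (median -2.12), among them Pdgfrb, the second PDGF receptor (-4.13 ± 0.63, adjusted p = 1.08e-06; 2.32 CPM in neuronal nuclei, against 18.9 CPM in non-neuronal nuclei), Pdgfc (-3.10 ± 0.49) and Pdgfd (-2.79 ± 0.57). Of 9 tested among 13 other small leucine-rich proteoglycans, 8 fell and none rose (median -3.90), led by Prelp (-5.57 ± 0.28; 5.36 against 285 CPM), Podn (-5.20 ± 0.54) and Aspn (-5.05 ± 0.41). Of 15 fibulins, latent TGF-beta binding proteins and elastic fibre genes, 8 fell and 1 rose (median -1.09). Mfap4 fell by the most (-5.22 ± 0.34), then Efemp1 (-4.08 ± 0.58) and Ltbp1 (-3.85 ± 0.27), while Mfap2, a microfibril component, rose (1.78 ± 0.47, adjusted p = 0.00185; 15.4 against 3.87 CPM). Of 21 tested among 24 genes of fibroblast populations, 19 fell and 1 rose (median -3.13). Complement C3 (-6.04 ± 0.39), Dpp4 (-5.75 ± 0.42) and Mmp2 (-5.23 ± 0.54) fell, and Thy1, which neurons also make, rose (2.35 ± 0.32, adjusted p = 1.17e-07). Of 11 tested among 15 other purine receptors with Kcnn3, the SK3 channel, 3 rose and 2 fell (median -0.04). The ion channel P2rx2, a receptor of enteric neurons, rose (3.66 ± 0.33, adjusted p = 1.59e-11; 91.8 against 16.5 CPM), as did P2ry6 (2.11 ± 0.32) and P2ry14 (0.77 ± 0.27). P2rx7 fell (-2.08 ± 0.31) and so did Kcnn3 (-1.13 ± 0.14, adjusted p = 2.91e-08), which had 197 CPM in neuronal nuclei, against 366 CPM in non-neuronal nuclei. Beside these medians stands -0.01 for all genes tested.

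**Figure D4:**
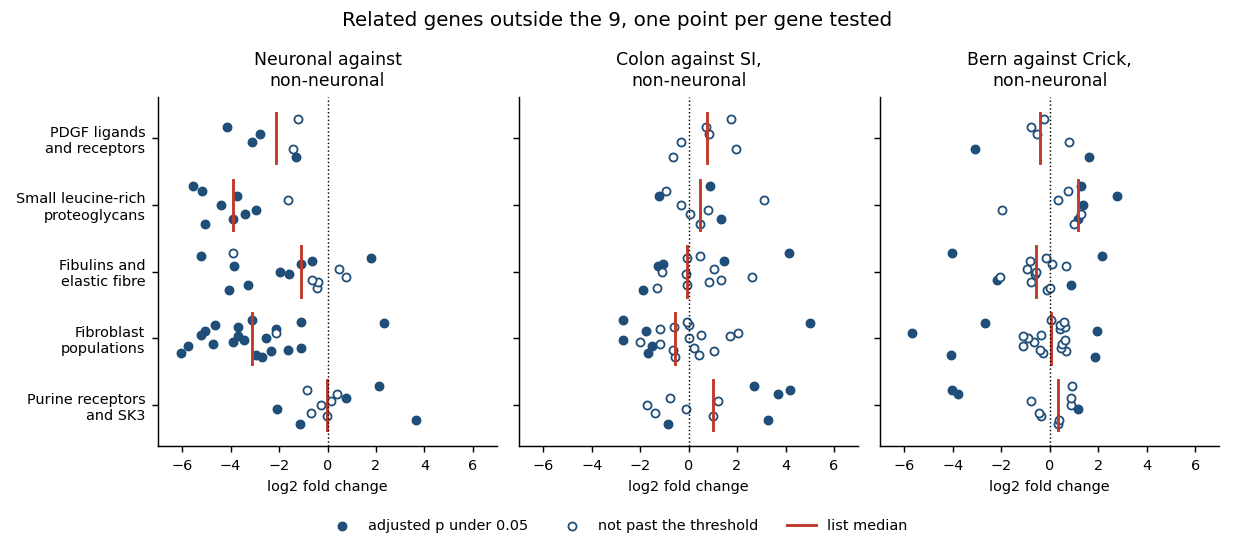
Points are log2 fold changes of the genes tested in 5 lists, filled where they passed; red lines are list medians, in the same 3 comparisons as the plot of the 9 genes. In the sort comparison the proteoglycans (median -3.90) and fibroblast population genes (median -3.13) lie to the left, and the purine receptors scatter around 0.

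In colon relative to SI, non-neuronal nuclei, 5 of the 21 tested genes of fibroblast populations fell and 1 rose, where 3.54% of all genes fell and 5.79% rose. Fold changes weight both facilities equally on the log scale, so for genes near 0 in some libraries they can be far from the ratio of the mean CPM. Those named by the rule were Grem1, a BMP antagonist (-2.70 ± 0.34, adjusted p = 3.37e-05; 28.7 CPM in colon and 154 CPM in SI), Wnt5a (-2.69 ± 0.52; 19.8 against 101 CPM) and the R-spondin gene Rspo1 (-1.76 ± 0.42), while Thy1 rose (4.99 ± 0.60, adjusted p = 2.12e-05; 43.8 against 3.85 CPM). Of the 15 fibulin and elastic fibre genes 3 fell, namely Efemp1 (-1.90 ± 0.54), Ltbp1 (-1.27 ± 0.26; 130 against 249 CPM) and Ltbp3 (-1.05 ± 0.32), and 2 rose, Mfap5 (4.15 ± 1.01; 7.68 against 2.73 CPM) and Ltbp4 (1.44 ± 0.30, adjusted p = 0.00426; 164 against 54.8 CPM). So 2 of the 3 other genes of the LTBP family fell in colon like Ltbp2 and 1 rose. Bgn (1.34 ± 0.37) and Prelp (0.87 ± 0.22) rose among the proteoglycans and Optc fell (-1.23 ± 0.29). No other PDGF gene of 6 passed (median 0.77). Of the 11 purine genes 4 rose, with P2ry4 (4.17 ± 1.19; 6.17 against 1.48 CPM), P2ry2 (3.69 ± 1.08; 4.89 against 1.98 CPM) and P2rx2 (3.26 ± 0.66; 31.0 against 2.08 CPM) named, and Kcnn3 fell (-0.84 ± 0.22, adjusted p = 0.0179; 300 against 432 CPM). The epithelium and neuron marker sums given above were also higher in colon, and their part in these calls was not tested.

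In Bern relative to Crick, non-neuronal nuclei, 4 of the 9 tested proteoglycans rose and none fell, where 4.35% of all genes rose and 4.94% fell, the largest being Optc (2.76 ± 0.31, adjusted p = 1.54e-05), Ogn (1.38 ± 0.32) and Prelp (1.29 ± 0.23; 406 CPM in Bern and 164 CPM in Crick). The list median was 1.16, and that of all genes -0.06. Of the 6 PDGF genes Pdgfa rose (1.62 ± 0.30, adjusted p = 0.00176; 127 against 45.1 CPM) and Pdgfb fell (-3.10 ± 0.80; 3.39 against 10.7 CPM). Of the fibulin and elastic fibre genes Mfap4 (2.16 ± 0.32) and Eln (0.88 ± 0.27) rose, and Mfap5 (-4.04 ± 1.00; 3.50 against 6.92 CPM) and Fbln5 (-2.19 ± 0.66; 5.22 against 16.2 CPM) fell. Of the fibroblast population genes Rspo1 (1.95 ± 0.43) and Ackr4 (1.88 ± 0.38) rose, and Prrx1 (-5.68 ± 1.07; 0.437 against 7.15 CPM), Bmp5 (-4.08 ± 0.94; 0.442 against 6.72 CPM) and Thy1 (-2.67 ± 0.58) fell. The mean level of Thy1 was nearly equal, at 23.0 CPM in Bern and 24.7 CPM in Crick, despite this fitted fold change. Of the purine genes P2rx7 rose (1.18 ± 0.37), and P2ry4 (-4.05 ± 1.19; 1.93 against 5.71 CPM) and P2ry2 (-3.77 ± 1.09; 2.39 against 4.48 CPM) fell. The ratios of these means are smaller than the fitted fold changes for several genes that fell, among them Prrx1, Pdgfb, Fbln5, Mfap5, P2ry4 and P2ry2.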

How the data were processed

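The deposited table gives the authors' expected counts for every Ensembl gene in 32 libraries, with column names of the RSEM type. The submitters' processing notes list STAR 2.5.2, RSEM 1.3.0 and DESeq2 1.10.1 with the build GRCm38, without saying which step each did, and per the labels' protocols cDNA came from a NuGEN whole-transcript kit. Counts were rounded to whole numbers; CPM is a count scaled to a common library total. Symbols and coordinates came from GENCODE, which matched 51719 of 51912 identifiers. Fits used edgeR 4.0.16 (TMM, filterByExpr, quasi-likelihood test, Benjamini-Hochberg threshold 0.05): comparisons across sorts over all 32 libraries, all others over the 16 of 1 sort, both facilities and segments weighted equally. Fold changes of genes near 0 depend on a small prior count. The sort comparison and the non-neuronal segment comparison were also run on simulated counts. There every gene had the same dispersion, and no library stood apart and no facility difference was put in. That run therefore cannot show how the fits behave with the uneven libraries of these data. Alternatives were DESeq2 1.42.0, limma-voom (3.58.1), RLE scaling, no low-count filter, a replicate block, the sorts fitted together, leaving out each library, and leaving out 6 libraries. The members, lists and these 6 libraries were chosen with earlier results of these data known. All 9 members are named; from each of 5 related lists at most 3 genes per direction are, the largest changes past the threshold with at least 1 CPM. Likeness used genes of at least 5 CPM, and 1 gene near Pi16 is not reported here. No 2 libraries of 1 group agreed within sampling noise.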

Additional observations from a re-analysis of the deposited data

Results flagged for a closer look

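A library far from the other 3 of its group, by a gap test that marks about 1 in 20 groups of continuous values by chance, was found in 8 of 72 combinations of gene and group. A group with counts in only 1 library is always marked, as were 2 of the 8. In neuronal nuclei these were Dcn in Bern colon library 4 (15.6 CPM; others 0.256 to 1.89), Pdpn in Bern colon library 3 (29.7 CPM; others 6.77 to 10.6), Ltbp2 in Crick colon library 4 (7.03 CPM; others 0.219 to 1.02), Ltbp2 in Bern colon library 1 (0.413 CPM, 1 count; others 0) and Dpt in Bern SI library 2 (0.218 CPM, 1 count; others 0). In non-neuronal nuclei they were Pdpn in Bern SI library 3 (39.0 CPM; others 0 to 2.59), Pdpn in Crick colon library 3 (6.23 CPM; others 15.6 to 16) and Ltbp2 in Bern SI library 2 (11.4 CPM; others 75.4 to 84.2). Without Bern SI non-neuronal library 2 or any other single library, the pooled segment difference of Ltbp2 was -5.70 to -5.10 on the log2 scale.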

How the results depend on the processing

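Of 2725 values of single members under the alternatives, 2677 stayed on their side of the threshold, 20 lost the call, 28 gained it and none that was called changed sign. Uncalled values near 0 did change sign, such as Pi16 (-0.37 to 0.33) and Pdpn (-0.17 to 0.71) between sorts when 1 library was left out. The sort counts moved by less than 1.5 times under every alternative run: 9214 to 9887 genes when 1 library was left out (6 to 7 members), 7943 to 8729 in Bern (6 to 7) and 5338 to 6467 in Crick (6). RLE scaling moved the median log2 fold change of all genes in the sort comparison to -0.113, against -0.012 with TMM.

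Other counts moved more, and the cause was not tested. For colon against SI in non-neuronal nuclei (1787 genes) they were 2948 with DESeq2, 2862 with the sorts fitted together, 764 without the 6 libraries and 1172 to 2417 when 1 library was left out. In Bern (1939) they were 3431 with DESeq2, 2962 with no filter, 3485 with the sorts together, 617 without the 6 libraries and 1454 to 2584 with 1 left out. In Crick (49) they were 194 with DESeq2, 108 with limma-voom, 262 with no filter, 99 with the sorts together, 8 without the 6 libraries and 22 to 74 with 1 left out; members there were 0 with the sorts together or without the 6 libraries and 0 to 1 with 1 left out. The share higher in Crick was 38.8%, and 59.3% with DESeq2.

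For Bern against Crick in non-neuronal nuclei (1780 genes) counts were 2853 with DESeq2, 3122 with limma-voom, 6373 with no filter, 3176 with the sorts together, 745 without the 6 libraries and 1280 to 2652 with 1 left out; members were 2 with DESeq2, limma-voom and RLE scaling, 0 without the 6 libraries and 1 to 2 with 1 left out. The share higher was 46.8%, 23.1% with limma-voom and 21.5% with no filter, where the median of all genes was -0.572 and -1.012. For segment by facility (0 genes) counts were 329 with DESeq2 (2 members), 229 with no filter, 114 with the sorts together and 0 to 4 with 1 left out. In neuronal nuclei, colon against SI (960) gave 1599 with DESeq2, 1652 with no filter and 679 to 1120 with 1 left out. Bern against Crick there (1344) gave 2325 with DESeq2 (1 member) and 2155 with no filter (1 member). It gave 2 members with the sorts together, and 799 to 1818 genes and 0 to 2 members with 1 left out. Ltbp2 was the member with no filter and 1 of the 2 with the sorts together. With 1 library left out it was called in all 13 fits that tested it. It had 3 counts in Bern and 115 in Crick neuronal libraries, so these calls are not read as a result. Segment by sort (1395) gave 2215 with DESeq2, 1116 to 1864 with 1 left out, and 2 members with DESeq2, 1 with limma-voom, 1 with no filter and 0 to 2 with 1 left out.

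The labels do not say what the replicate numbers mark, and they were not taken as pairs, since not every correlation of same-numbered libraries was over 0.1. Between sorts the correlations were 0 to 0.49, over 0.1 in 6 of 16 pairs, all from Crick; 12 of 16 libraries were closest to their own number, a hint of pairing from the data. With the number as a replicate block, colon against SI in Bern gave 849 genes and the P2ry1 sort call in Bern had an adjusted p of 0.0703. At these depths 3 counts over a group are 0.122 to 0.220 CPM, and levels of Ltbp2 and Dpt near that in neuronal nuclei are limited by counting. So is the level of Ltbp2 in non-neuronal Bern colon, with 8 counts.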

Other observations

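Per kilobase of exon, the order of the 9 genes differed between the sorts. In neuronal nuclei the means per kb were highest for Pdpn (5.94 CPM per kb) and P2ry1 (4.58), with Dpt at 1.08 and Dcn at 0.797. In non-neuronal nuclei they were highest for Dcn (21.9 CPM per kb), Dpt (16) and Pdgfra (12.7), with Pdpn at 5.53.

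Non-neuronal Bern colon library 2 had the highest Dcn level of its group (234 CPM; 56.6 to 108 in the other 3) together with the lowest Dpt (5.41 against 27.4 to 37.1), Lum (4.76 against 15.2 to 50.4), Fbln1 (14.3 against 34.0 to 48.0) and Pdgfra (26.6 against 30.8 to 62.1). It was also the library with the most Pi16 (69.5 CPM) and Pdpn (19.3 CPM) in that group. The pattern of this library was seen in the values and was not tested.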
